A study of Homo sapiens with 8 samples.

Results

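The Notch genes described here are 10 members of the Notch pathway: the receptors *NOTCH1*, *NOTCH2* and *NOTCH3*, the ligands *JAG1*, *JAG2* and *DLL1*, the nuclear partner *RBPJ*, and the target genes *HES1*, *HEY1* and *NRARP*. They were taken by name, and each symbol matched 1 of the 25702 Entrez gene identifiers in the RNA-seq count tables. All 10 passed the filter on low counts that left 14333 genes for testing. Their values in 8 libraries are given as CPM, each library's counts after scaling by its TMM-normalized total (the usual depth-adjusted unit of RNA-seq).

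The libraries were made from SUIT2, an established human pancreatic ductal adenocarcinoma (PDA) cell line of epithelial type. Of the 8 libraries, 4 are labelled shScr, for a scramble shRNA, and 4 are labelled shEN1, for an shRNA against *EN1*, the gene of the homeobox factor Engrailed-1. The shEN1 libraries fall into 2 of construct shEN1 #1 and 2 of construct shEN1 #2, in a pLKO.1 puro vector, and the comparison asks which genes change when EN1 is depleted. The groups thus differ by label in the hairpin alone, every library comes from the same line, and the labels do not say whether replicates came from separate transductions or cultures, so the tests measure only the spread between these libraries.

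Notch receptors are bound by ligands of the Jagged and Delta families on neighbouring cells, then cut by ADAM proteases and by γ-secretase. The freed intracellular domain enters the nucleus, joins RBPJ and Mastermind proteins on DNA, and switches on target genes such as those of the HES and HEY families. In the pancreas, Notch signalling through HES1 holds progenitors back from endocrine and acinar differentiation, and the pathway is active again in duct-like lesions and PDA.

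*EN1* itself (Entrez 2019; GRCh37 chromosome 2, 119599747 to 119605224, minus strand) was not lower on average under the shEN1 labels. It had 136, 167, 172 and 94 counts across shScr-labelled replicates 1 to 4, 206 and 184 counts under the label shEN1 #1, and 53 and 218 counts under the label shEN1 #2. In CPM this was 4.01 ± 1.06 against 4.81 ± 2.37 (SD, n = 4 each), a difference smaller than the spread between libraries (log2 fold change 0.26, edgeR standard error 0.43, adjusted p = 1.00). Only replicate 1 of shEN1 #2 lay below the shScr range, and 3 of the 4 shEN1-labelled libraries lay above it. The lowest libraries, shEN1 #2 replicate 1 (1.35 CPM) and shScr replicate 4 (2.51 CPM), are a pair that stands apart over all genes, as described below. The study itself reports *EN1* depletion in SUIT2 by 2 shRNA constructs, measured by RT-qPCR, and differing genes in SUIT2 RNA-seq after knockdown. A group name is therefore used below for what a library is labelled, and no direction given between labels is a response to measured *EN1* depletion.

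Depth was even, with 33423590 to 37810604 counts per library and TMM factors of 0.962 to 1.07. A pair of libraries, labelled shScr replicate 4 and shEN1 #2 replicate 1, stood apart on the first principal component of log2 CPM, at 59.2 and 62.1, against -27.6 to -9.15 for the other 6. Expression levels moved with that pair: for 38.1% of the 14333 genes tested, both libraries were lower, or both were higher, than all of the other 6. A second, weaker pair was formed by shScr replicate 3 and shEN1 #1 replicate 1, with 13.9% of genes. The epithelial markers *EPCAM*, *CDH1*, *KRT7*, *KRT8*, *KRT18* and *KRT19* were all present, summing to 11438 to 18539 CPM. Of the other cell types, *COL1A2*, *COL3A1*, *DCN* and *LUM* (fibroblast), *CDH5* and *KDR* (endothelial), *PTPRC* and *CD3E* (immune) and *CPA1* and *INS* (acinar and endocrine) had 0 counts in every library. The summed level of the whole list was 1.17 to 4.22 CPM for the fibroblast genes, 0.316 to 0.676 CPM for the endothelial genes, 8.43 to 35.3 CPM for the immune genes, of which all but 0.676 to 3.35 CPM was *CD68*, and 0.355 to 1.41 CPM for the acinar and endocrine genes.

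The promoters of *HES1* and *RBPJ* are shown first because they hold the core of the RBPJ binding motif, TGGGAA, and that of *NRARP* as a Notch target whose window does not. The sequences are RefSeq windows on GRCh38.p14 of 250 bases before to 50 bases after an annotated start, written 5′ to 3′ on the gene's strand in lower case. Capitals mark each TGGGAA or its reverse complement TTCCCA.
HES1 promoter, chr3:194135898-194136197, plus strand: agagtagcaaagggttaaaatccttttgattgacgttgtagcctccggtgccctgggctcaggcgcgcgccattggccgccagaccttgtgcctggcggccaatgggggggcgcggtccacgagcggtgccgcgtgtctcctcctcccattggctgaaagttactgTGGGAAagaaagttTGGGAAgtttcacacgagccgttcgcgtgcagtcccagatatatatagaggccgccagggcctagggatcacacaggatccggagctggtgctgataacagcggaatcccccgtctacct
RBPJ promoter, 1 of 5 annotated starts, chr4:26319496-26319795, plus strand: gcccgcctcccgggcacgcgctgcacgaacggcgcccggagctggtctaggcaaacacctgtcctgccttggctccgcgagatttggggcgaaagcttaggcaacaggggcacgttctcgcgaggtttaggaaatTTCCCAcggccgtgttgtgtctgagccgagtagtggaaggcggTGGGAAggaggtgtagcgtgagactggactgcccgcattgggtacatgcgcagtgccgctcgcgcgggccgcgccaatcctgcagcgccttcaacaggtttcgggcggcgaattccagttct
NRARP promoter, chr9:137302222-137302521, minus strand: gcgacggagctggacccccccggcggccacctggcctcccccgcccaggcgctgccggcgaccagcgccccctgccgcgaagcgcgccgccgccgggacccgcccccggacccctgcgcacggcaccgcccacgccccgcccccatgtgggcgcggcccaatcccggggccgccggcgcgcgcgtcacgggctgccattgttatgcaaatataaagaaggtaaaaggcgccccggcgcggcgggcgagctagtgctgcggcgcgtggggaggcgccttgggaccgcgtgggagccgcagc

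*HES1*, a transcriptional repressor and the classical Notch target, carried 2 copies of TGGGAA on the same strand, at positions 167 to 172 and 181 to 186 of the window with 8 bases between them. Of the 5 *RBPJ* windows, only the 1 shown held TGGGAA. It carried 2 copies on opposite strands, at positions 136 to 141 and 179 to 184, with 37 bases between them. Both of its copies, and 1 of the 2 in *HES1*, were part of the longer form GTGGGAA. Over 34943 promoter windows of the same length, searched on both strands, 24% held TGGGAA at least once, 3.79% held it at least 2 times and 6.24% held GTGGGAA. These shares are per window, and *RBPJ* had 5 windows in which a match could fall. The windows of *NOTCH1*, *NOTCH2*, *NOTCH3*, *JAG1*, *JAG2* and *NRARP* held neither. *DLL1* had no window in the promoter set, and *HEY1* is not part of this tally. A match describes letters in a window and is no evidence of binding, and no match says nothing about the factor. *HES1* and *RBPJ* were also the members, together with *NOTCH2*, that varied least between libraries, as their values below show. The *NOTCH2* window held no match, and a link between motif and spread was not tested.

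*NOTCH2* was the most abundant receptor in every library. *NOTCH2* (Entrez 4853; GRCh37 chromosome 1, 120454176 to 120643366, minus strand) had 169, 149.5, 221 and 220.4 CPM across shScr-labelled replicates 1 to 4, 178 and 204 CPM under the label shEN1 #1, and 210.5 and 172 CPM under the label shEN1 #2. The lowest and the highest library were both labelled shScr, so the shEN1 range lay inside the shScr range. The means were 189.9 ± 36.3 CPM (shScr) and 191 ± 18.9 CPM (shEN1; SD, n = 4 each), with a log2 fold change of 0.0083 and a 95% interval of -0.32 to 0.34. Since RNA of whole cultures was measured, here and in all values that follow, fewer cells with a transcript and less of it per cell cannot be told apart. Exact stretches of 100 bases shared with the human-specific NOTCH2NL copies cover 3.31% of the 11425-base *NOTCH2* transcript, and how reads there were assigned is not given in the sources used here. The copy *NOTCH2NLA* (Entrez 388677) was listed separately at 23.7 to 35.2 CPM.

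*NOTCH1* (Entrez 4851; chromosome 9, 139388885 to 139440500, minus strand), the receptor first linked to cancer through T-cell leukaemia, had 42.3, 38.7, 58.5 and 33.4 CPM across shScr-labelled replicates 1 to 4. It had 40.7 and 71.1 CPM under the label shEN1 #1 and 33.7 and 56.2 CPM under the label shEN1 #2. Within each construct its replicates differed 1.74-fold (#1) and 1.67-fold (#2), more than the 1.17-fold between the label means of 43.2 ± 10.9 and 50.4 ± 16.7 CPM (SD, n = 4 each). The log2 fold change was 0.22, with a 95% interval of -0.33 to 0.77.

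*NOTCH3* (Entrez 4854; chromosome 19, 15269849 to 15311806, minus strand), best known as a receptor of vascular smooth muscle, was the scarcest receptor tested and, on log2 CPM with a prior count of 2, the member with the widest span. It had 0.602, 1.97, 2.78 and 4.32 CPM (20, 73, 97 and 162 counts) across shScr-labelled replicates 1 to 4, 0.728 and 1.53 CPM under the label shEN1 #1, and 2.87 and 1.81 CPM under the label shEN1 #2. The scramble libraries alone spanned 7.18-fold, which contains all 4 shEN1 values. The means were 2.42 ± 1.56 and 1.73 ± 0.885 CPM (SD, n = 4 each), with a log2 fold change of -0.48 and a 95% interval of -1.74 to 0.78. The direction turned to 0.55 with the replicate block and to 0.37 with 4 libraries left out, and the value was -0.040 without shScr replicate 4 and -0.84 without shEN1 #2 replicate 1.

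**Figure D1:**
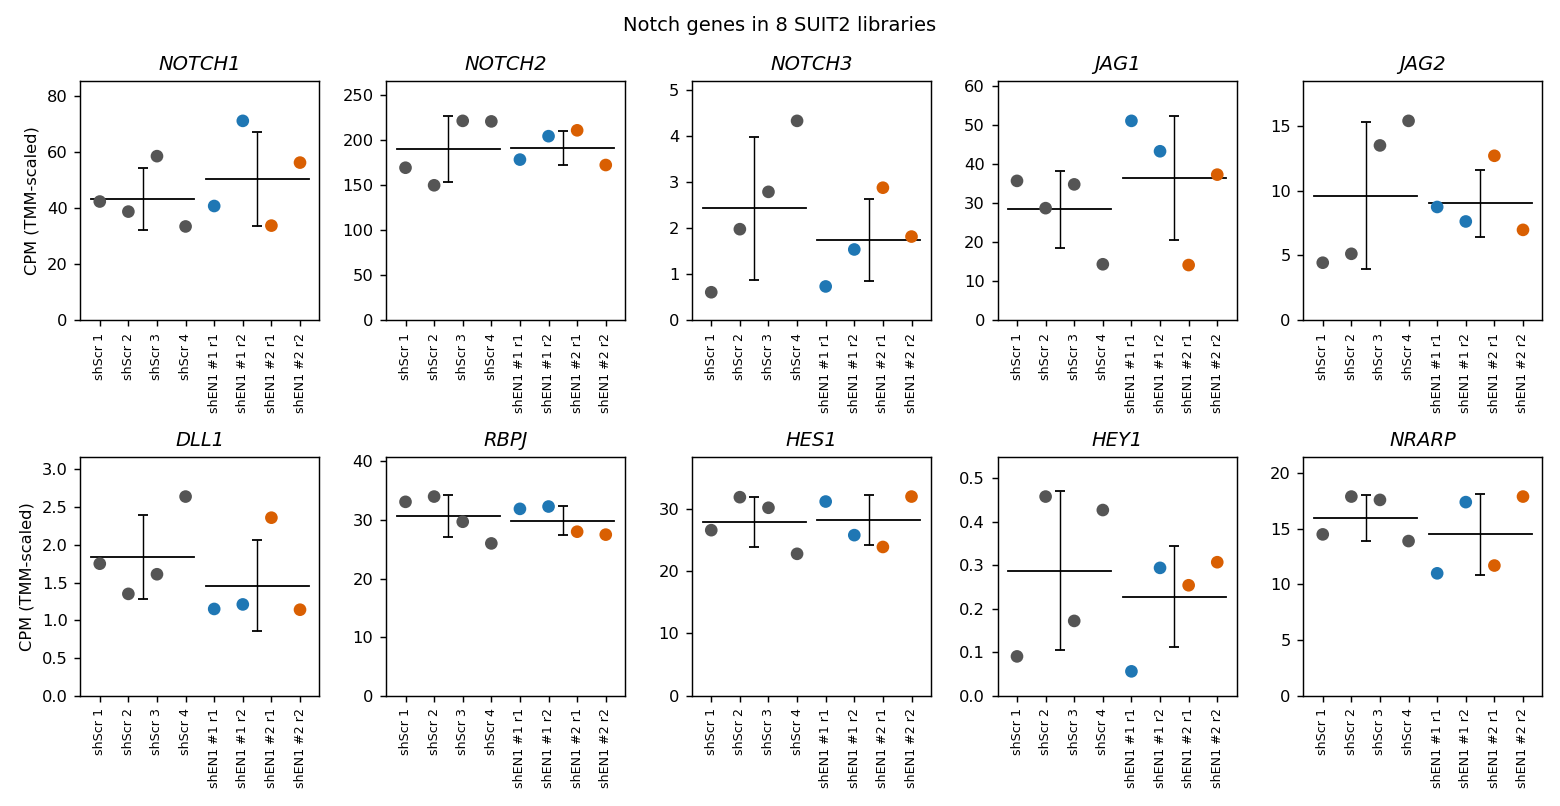
CPM (linear axis from 0) of the 10 Notch genes in each of the 8 SUIT2 libraries, with 1 point per library, grey for shScr, blue for shEN1 #1 and orange for shEN1 #2; horizontal lines are label means and bars are SD (n = 4). The ranges of the labels overlap for all 10 genes, from *HEY1* at 0.0560 to 0.458 CPM to *NOTCH2* at 149.5 to 221 CPM.

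Among the ligands, *JAG1* and *JAG2* were lowest in different libraries. *JAG1* (Entrez 182; chromosome 20, 10618332 to 10654647, minus strand), a Jagged ligand common on epithelial tumour cells, had 35.7, 28.7, 34.8 and 14.3 CPM across shScr-labelled replicates 1 to 4, 51.1 and 43.3 CPM under the label shEN1 #1, and 14.1 and 37.3 CPM under the label shEN1 #2. The values of 14.3 and 14.1 CPM came from the pair that stood apart, 1 of each label, and the other 6 libraries lay between 28.7 and 51.1 CPM. The label means were 28.4 ± 9.87 and 36.4 ± 16.0 CPM (SD, n = 4 each), with a log2 fold change of 0.36 and a 95% interval of -0.52 to 1.24.

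*JAG2* (Entrez 3714; chromosome 14, 105607319 to 105635161, minus strand), the other Jagged ligand, had 4.43, 5.12, 13.5 and 15.4 CPM across shScr-labelled replicates 1 to 4, 8.74 and 7.62 CPM under the label shEN1 #1, and 12.7 and 6.97 CPM under the label shEN1 #2. All 4 shEN1 values fell in the gap between the lower and the upper pair of shScr values. The means were 9.62 ± 5.66 and 9.02 ± 2.59 CPM (SD, n = 4 each), with a log2 fold change of -0.093 and a 95% interval of -1.01 to 0.82. Its direction depended on single libraries and turned to 0.23 without shScr replicate 4.

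*DLL1* (Entrez 28514; chromosome 6, 170591294 to 170615653, minus strand), a Delta ligand, was the scarcest ligand among the members. It had 1.75, 1.35, 1.61 and 2.64 CPM across shScr-labelled replicates 1 to 4, 1.15 and 1.21 CPM under the label shEN1 #1, and 2.36 and 1.14 CPM under the label shEN1 #2, from 37 to 99 counts. Its highest values were in the same pair of libraries in which *JAG1* was lowest. Without that pair the log2 fold change was -0.43 (edgeR unadjusted p = 0.295, adjusted p = 1.00). Over all libraries the means were 1.84 ± 0.562 and 1.46 ± 0.600 CPM (SD, n = 4 each), with a log2 fold change of -0.32 and a 95% interval of -1.15 to 0.50. Part of its exons, 9.79%, overlaps *FAM120B* on the opposite strand. The corresponding shares were 8.12% for *JAG2* (same strand), 5.15% for *JAG1* and 2.76% for *NRARP* (both opposite strand). The strand setting of the counting is not given in the sources used here, so reads in the opposite-strand parts cannot be assigned, and for *JAG2* no strand setting would separate them.

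The JAG1 to JAG2 balance, taken per kilobase of transcript so that the genes can be compared, ran from 7.84 to 0.905. The ratio was 7.84, 5.45, 2.50 and 0.905 across shScr-labelled replicates 1 to 4, 5.69 and 5.52 under the label shEN1 #1, and 1.07 and 5.20 under the label shEN1 #2. *JAG1* exceeded *JAG2* more than 2-fold in 6 libraries, and the ligands were near equal in the pair that stood apart. This 8.67-fold range was not a difference between labels. The mean log2 ratio was 1.65 ± 1.38 in the shScr libraries and 1.86 ± 1.18 in the shEN1 libraries (SD, n = 4 each), a difference of 0.21 that gave p = 0.83 in an exact two-sided permutation test.

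**Figure D2:**
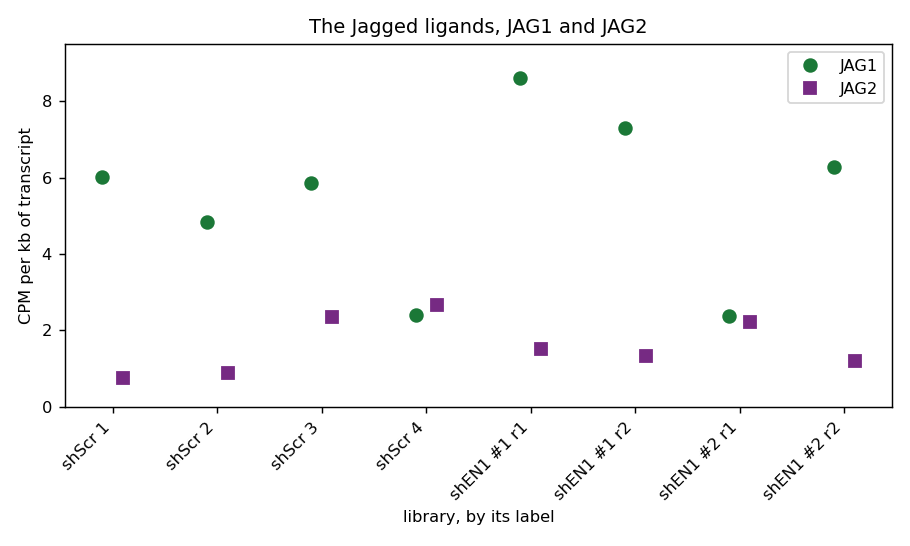
Level of *JAG1* (green circles) and *JAG2* (purple squares) in CPM per kilobase of transcript in each library (linear axis from 0). *JAG1* ranged from 2.37 to 8.61 and *JAG2* from 0.767 to 2.67; they lie close together in shScr replicate 4 and shEN1 #2 replicate 1 only.

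*RBPJ* (Entrez 3516; chromosome 4, 26165077 to 26436753, plus strand), the DNA-binding partner of all Notch receptors, was the steadiest member. It had 33.1, 34, 29.7 and 26 CPM across shScr-labelled replicates 1 to 4, 31.9 and 32.3 CPM under the label shEN1 #1, and 28 and 27.5 CPM under the label shEN1 #2. Replicates of a construct differed by no more than 1.02-fold and all 8 libraries by 1.31-fold. The means were 30.7 ± 3.64 and 29.9 ± 2.53 CPM (SD, n = 4 each), with a log2 fold change of -0.039 and a 95% interval of -0.32 to 0.25. *RBPJ* has processed pseudogenes, and how reads were split between them is not given in the sources used here.

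*HES1* (Entrez 3280; chromosome 3, 193853937 to 193856521, plus strand), whose promoter is shown above, had 26.6, 31.9, 30.2 and 22.8 CPM across shScr-labelled replicates 1 to 4, 31.2 and 25.8 CPM under the label shEN1 #1, and 23.9 and 32 CPM under the label shEN1 #2. The ranges of the labels, 22.8 to 31.9 and 23.9 to 32 CPM, almost coincided. The means were 27.9 ± 4.05 and 28.2 ± 4.01 CPM (SD, n = 4 each), with a log2 fold change of 0.018 and a 95% interval of -0.32 to 0.35.

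*NRARP* (Entrez 441478; chromosome 9, 140194083 to 140196723, minus strand), a Notch target that feeds back to limit the Notch nuclear complex, had 14.5, 17.9, 17.6 and 13.9 CPM across shScr-labelled replicates 1 to 4, 11.0 and 17.4 CPM under the label shEN1 #1, and 11.7 and 17.9 CPM under the label shEN1 #2. Replicate 1 of either construct was lower than every other library, and replicate 2 of either lay within the shScr range. The means were 16.0 ± 2.08 and 14.5 ± 3.64 CPM (SD, n = 4 each), with a log2 fold change of -0.14 and a 95% interval of -0.58 to 0.30.

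*HEY1* (Entrez 23462; chromosome 8, 80674606 to 80680092, minus strand), a target of the HEY family of repressors, was close to the limit of detection. It had 3, 17, 6 and 16 counts across shScr-labelled replicates 1 to 4, 2 and 10 under the label shEN1 #1, and 10 and 10 under the label shEN1 #2, which is 0.0560 to 0.458 CPM. The means were 0.287 ± 0.183 and 0.228 ± 0.117 CPM (SD, n = 4 each), with a log2 fold change of -0.34 and a 95% interval of -1.87 to 1.19, an interval that holds a 2-fold difference in either direction.

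No Notch gene passed the test between labels. Between shEN1 and shScr, 0 of the 10 members reached an adjusted p below 0.05 (quasi-likelihood test of edgeR), where 0% of the 14333 genes tested did. At an unadjusted p below 0.05 the members again numbered 0, against 44 genes or 0.307% of those tested, and DESeq2 called 0 members as well. With no real difference and independent libraries, a share near 0.05 would be expected, so the test was cautious here. A count of 0 members is thus weak evidence that none differs. Ranges of CPM that do not overlap between labels were found for 0 members, against 0.419% of all genes. The exact two-sided permutation p of the members' CPM ran from 0.371 (*JAG1*) to 0.971 (*NOTCH2*), where the smallest that 4 against 4 libraries allow is 0.0286. Of the members, 4 were higher and 6 lower under the shEN1 label, while 48.9% of all genes were higher. For 4 members (*NOTCH2*, *JAG2*, *RBPJ* and *HES1*) the sign turned when a single library was left out, in 4 of 8 such fits for *NOTCH2* and for *HES1*. The median log2 fold change of the members was -0.066 (range -0.48 to 0.36) and that of all genes -0.0028. In absolute size the medians were 0.18 and 0.073.

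The intervals show which differences remain compatible with these libraries, not which ones the test could have called. For *NOTCH2*, *RBPJ* and *HES1* the 95% interval ended within 0.35 of 0 on the log2 scale on both sides. For *NOTCH1* and *NRARP* it stayed within 0.77. The intervals of *JAG1*, *JAG2*, *DLL1*, *NOTCH3* and *HEY1* each reached past 1, a 2-fold change, on at least 1 side. In all 10 members the scramble libraries differed among themselves by more than the label means did, from 1.29-fold against 1.1-fold for *NRARP* to 7.18-fold against 1.39-fold for *NOTCH3*. The same held between the replicates of shEN1 #1 for 7 members and between those of shEN1 #2 for 8. Single libraries vary more than label means do, so this order can be expected for many genes. Its share over all genes was not computed, so these counts do not set the Notch genes apart.

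**Figure D3:**
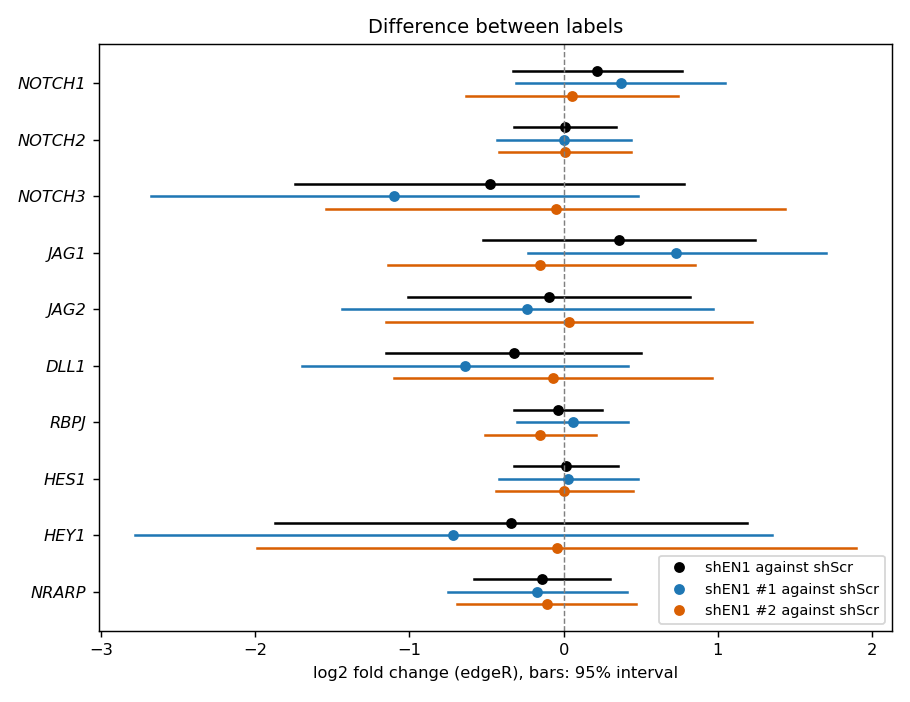
Log2 fold change of the 10 Notch genes from edgeR with 95% intervals, for both shEN1 constructs pooled (black), shEN1 #1 (blue) and shEN1 #2 (orange), each against the same 4 shScr libraries; the dashed line marks 0. Every interval includes 0, and they are narrowest for *RBPJ*, *NOTCH2* and *HES1* and widest for *HEY1* and *NOTCH3*.

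Taken by construct, the Notch genes did not pass the test either. In a fit with 3 groups, shEN1 #1 against shScr called 0 members and 0% of genes, and at an unadjusted p below 0.05 it held 0 members and 0.656% of genes. For shEN1 #2 against shScr the counts were 0 members at both thresholds, with 0% and 0.300% of genes. Between the constructs they were again 0 members, with 0% and 1.07% of genes. Both comparisons with shScr share the same 4 scramble libraries. The largest differences against shScr belonged to shEN1 #1, at -1.10 for *NOTCH3* (95% interval -2.68 to 0.48) and 0.73 for *JAG1* (-0.23 to 1.70), where shEN1 #2 gave -0.047 and -0.15. The difference between the constructs was -0.88 for *JAG1*, with a 95% interval of -2.03 to 0.27, the smallest unadjusted edgeR p of any member being 0.117 (adjusted p = 1.00). The replicates of shEN1 #2 themselves differed 2.65-fold in *JAG1*.

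Between libraries, whatever their label, 6 of the 10 Notch genes varied more than the median gene tested, and the others less. The log2 span from the lowest to the highest of the 8 libraries had a median of 1.13 over the members, against 0.76 over all genes tested, and exceeded 1 for 6 members (60.0%) and for 35.4% of all genes. Members ranged from 0.39 (*RBPJ*), 0.49 (*HES1*), 0.56 (*NOTCH2*) and 0.70 (*NRARP*) over 1.09 (*NOTCH1*) and 1.18 (*DLL1*) to 1.79 (*JAG2*), 1.86 (*JAG1*), 2.2 (*HEY1*) and 2.73 (*NOTCH3*). These spans are of log2 CPM with a prior count of 2, which narrows those of scarce genes: in CPM without it, *HEY1* ranged 8.18-fold and *NOTCH3* 7.18-fold.

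The pair of libraries that stood apart held both extremes for 5 of the 10 members, near the 38.1% of all genes. *NOTCH1*, *JAG1* and *HES1* were lowest, and *NOTCH3* was highest, in both of its libraries, as was *DLL1*. The weaker pair of shScr replicate 3 and shEN1 #1 replicate 1 held both extremes for 0 members, where 13.9% of all genes did so. Each of these pairs has 1 library of either label.

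**Figure D4:**
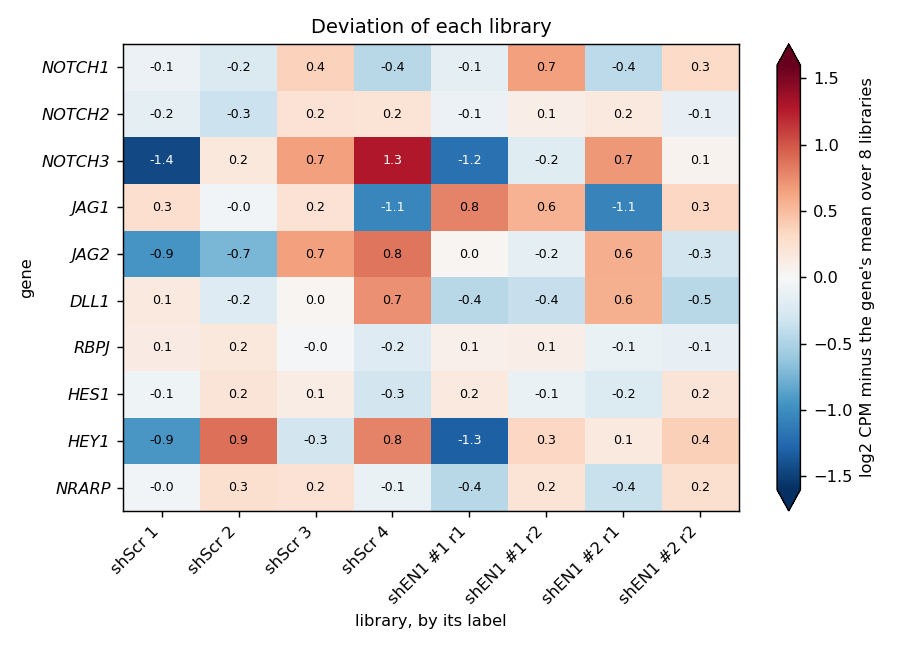
Deviation of each library from the gene's mean over the 8 libraries, in log2 CPM, with genes in rows and libraries in columns (red above the mean, blue below). In the columns of shScr replicate 4 and shEN1 #2 replicate 1, *JAG1* and *NOTCH1* are blue and *NOTCH3*, *JAG2* and *DLL1* are red, while the rows of *RBPJ*, *HES1* and *NOTCH2* stay pale throughout.

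Compared per kilobase of transcript, the members fell into tiers. *HES1* at 17.8 (range over 8 libraries 14.5 to 20.3) and *NOTCH2* at 16.7 (13.1 to 19.3) CPM per kilobase led, and their ranges overlapped. *NRARP* at 5.77 (4.18 to 6.79), *RBPJ* at 5.62 (4.83 to 6.31), *JAG1* at 5.46 (2.37 to 8.61) and *NOTCH1* at 4.89 (3.49 to 7.43) followed without a gap among them. *JAG2* at 1.61 (0.767 to 2.67) did not overlap *NOTCH1*, the next above it, or *DLL1*, the next below, but its range reached into that of *JAG1*. Below it came *DLL1* at 0.436 (0.301 to 0.699), *NOTCH3* at 0.239 (0.0694 to 0.498) and *HEY1* at 0.117 (0.0255 to 0.209), of which *DLL1* and *NOTCH3* overlapped and *NOTCH3* and *HEY1* overlapped.

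The receptors kept their order in all 8 libraries. The level of *NOTCH2* per kilobase was 3.34, 3.24, 3.16 and 5.53 times that of *NOTCH1* across shScr-labelled replicates 1 to 4, 3.65 and 2.40 times under the label shEN1 #1, and 5.23 and 2.57 times under the label shEN1 #2. The highest ratios again came from the pair that stood apart, and the mean log2 ratio of 1.89 ± 0.39 and 1.72 ± 0.52 (SD, n = 4 each) gave p = 0.600 between labels in the exact two-sided permutation test. *NOTCH2* exceeded *NOTCH3* between 38.7 and 213 times, and *HES1* exceeded *NRARP* between 2.48 and 4.74 times.

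For the members with the widest spans, the tested genes with the most similar profile over the 8 libraries were sought, by the root mean square difference of centred log2 CPM over 13803 genes with a symbol. Nearest to *NOTCH3* were *LOC100130691* (0.27), *PVRIG* (0.31), an inhibitory receptor gene of lymphocytes, and *CKB* (0.35), the brain-type creatine kinase, at 4.79 to 24.1 CPM. Nearest to *HEY1* were *SEMA3F-AS1* (0.31), *ETFBKMT* (0.34) and *GOLGA6L5P* (0.37). They were scarce too, at 0.336 to 0.934, 0.448 to 2.18 and 0.0602 to 0.809 CPM. Some gene is always nearest, and the distance to be expected by chance was not computed. *HEY1* had only 2 to 17 counts per library, and how much of its profile is counting error was not tested.

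No further gene of the pathway passed the test. Of 47 further Notch pathway genes listed by role, 40 were tested, 17 were higher and 23 lower under the shEN1 label, and 0 passed the test at an adjusted or an unadjusted p below 0.05. Their median log2 fold change was -0.016 (range -0.69 to 0.37) and their median log2 span 0.86. Label ranges that did not overlap were found for 0 of the 40. Over all genes tested the shares were 0% (adjusted), 0.307% (unadjusted) and 0.419% (ranges), so a count of 0 among 40 does not set the pathway apart.

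Among the remaining receptor and ligand genes, *NOTCH4*, *DLL3* and *DLK1* had 0 counts in every library. *DLL4*, the Delta ligand of blood vessel sprouting, was at 0.112 to 0.940 CPM. *DLK2*, a non-canonical ligand, had 0.843, 0.863, 1.86 and 5.42 CPM across shScr-labelled replicates 1 to 4, 1.79 and 0.706 CPM under the label shEN1 #1, and 4.34 and 0.768 CPM under the label shEN1 #2. It was thus highest in the pair that stood apart, like *DLL1*.

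All 5 genes for the sugars on Notch receptors were tested, with 1 higher and 4 lower. *LFNG*, the Fringe enzyme that tunes receptors toward Delta ligands, had 7.80, 16.9, 13.7 and 4.19 CPM across shScr-labelled replicates 1 to 4, 8.01 and 12 CPM under the label shEN1 #1, and 3.20 and 14.9 CPM under the label shEN1 #2. Its lowest values were those of the pair that stood apart. *MFNG*, another Fringe gene, had 4 to 26 counts per library and a log2 fold change of -0.69 (edgeR standard error 0.58, adjusted p = 1.00).

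The 9 genes for receptor cleavage, with 3 higher and 6 lower, had the smallest median span of the roles, 0.55. *ADAM10*, the protease of the ligand-induced cut, ranged from 74.3 to 143 CPM, and was lowest in shScr replicate 4. *APH1B*, a γ-secretase subunit, had 12.9 and 12.6 CPM in the pair that stood apart and 4.18 to 6.54 CPM in the other 6 libraries.

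Of 13 genes for ligand endocytosis and receptor turnover, 12 were tested, with 5 higher and 7 lower. *NEURL1B*, a ubiquitin ligase that acts on Notch ligands, had the widest span of the pathway, 3.92 on the log2 scale. It had 0.964, 2.26, 11.8 and 15.4 CPM across shScr-labelled replicates 1 to 4, 7.22 and 2.09 CPM under the label shEN1 #1, and 12.4 and 2.30 CPM under the label shEN1 #2. The 4 libraries above 7 CPM were those of both pairs described above, 2 of each label. *DTX3*, of the Deltex family of ubiquitin ligases, had 27.3 and 30.5 CPM in the first pair and 9.74 to 14.6 CPM in the others.

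In the nuclear complex, 7 of 8 genes were tested, with 5 higher and 2 lower. *MAML2*, a Mastermind coactivator, had 18.1 and 16.9 CPM in the pair that stood apart and 32 to 37.3 CPM in the other 6 libraries. *MAML3*, a related coactivator, ranged from 1.12 to 4.10 CPM. Of 7 further HES and HEY genes, 5 were tested, with 3 higher and 2 lower, and *HES5* had 0 counts. *HES7*, known from the segmentation clock of the embryo, had 1.08, 1.99, 4.59 and 1.33 CPM across shScr-labelled replicates 1 to 4, 4.31 and 1.62 CPM under the label shEN1 #1, and 0.914 and 4.21 CPM under the label shEN1 #2. *HEYL* ranged from 0.307 to 1.44 CPM.

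**Figure D5:**
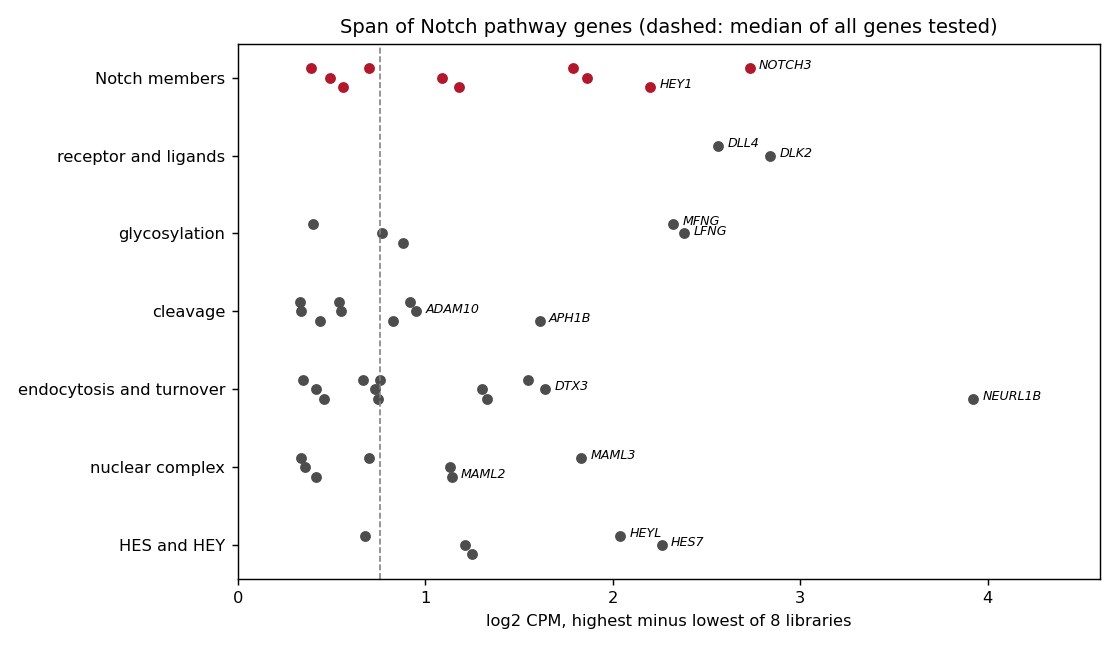
Log2 span, the highest minus the lowest log2 CPM of the 8 libraries, for the 10 Notch genes (red) and the 40 further pathway genes tested (grey), in rows by role; points are shifted vertically only to separate them. The dashed line is the median of all genes tested, 0.76; *NEURL1B* at 3.92 lies farthest right and 6 of the 10 Notch genes lie right of the line.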

How the data were processed

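RNA-seq of SUIT2 was read from 8 count tables, grouped by their labels. The authors deposited whole-number counts per gene, not normalized, which per the study's methods came from HISAT2 alignments of read pairs to the hg19 build, tallied by featureCounts. The submitters' processing notes name mm9 instead; hg19 was taken because the identifiers are human Entrez genes. The annotation and strand setting are not given in the sources used here, so overlapping genes could share reads. Of 25702 Entrez identifiers, 23696 were matched to a RefSeq symbol. Positions and MANE Select transcript lengths came from GENCODE v44 lifted to GRCh37 (hg19). Promoters came from RefSeq on GRCh38.p14.

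Genes were filtered with filterByExpr (minimum count 10), TMM-normalized and tested with edgeR 4.0.16 (glmQLFit, robust, and glmQLFTest) in R 4.3.3, with both constructs pooled and with 3 groups, and p-values were Benjamini-Hochberg adjusted over all 14333 genes (threshold 0.05). The edgeR standard error is the log2 fold change over the square root of F. Log2 spans, principal components and profile likeness used log2 CPM with a prior count of 2, and the log2 ratios and all levels used CPM of TMM-scaled totals. Single values were tested by exact two-sided permutation over 70 assignments (scipy 1.17.1). The scripts were tested on simulated counts drawn with the spread of these data, but without pairs of libraries that stand apart. There edgeR recovered 55.5% of 2-fold and 92.5% of 4-fold changes. No 2 libraries were identical, and every pair differed beyond sampling noise (chi-square of at least 10.6 per gene). The totals of 33423590 to 37810604 counts set the counting precision.

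The members, lists and tests were chosen with earlier results of these data known. Named were all members, *EN1*, the 2 tested genes of widest span in each pathway role, the 3 genes most like each of the 2 widest-spanning members, and the listed copies of *NOTCH2*. Alternatives were DESeq2's size factors, library size only, DESeq2 1.42.0, limma-voom (limma 3.58.1), other filters, 3 groups, a replicate block and leaving out each library. Leaving out 2 or 4 libraries that stand apart, and all alternatives for ratios, were chosen after seeing the data. The murine organoids of the study were not analysed here.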

Additional observations from a re-analysis of the deposited data

Results flagged for a closer look

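Dixon's criterion was applied to 44 groups of 4 libraries, for the 10 Notch members and the 12 named pathway genes. In 4 groups, 1 library lay far from the others of its label. The 12 pathway genes were picked for a wide span over these same libraries, and the groups share libraries. The 2.2 groups that chance would give among 44 independent groups are therefore no yardstick here. *DLL1* was at 2.36 CPM in the library labelled shEN1 #2 replicate 1, with the other 3 libraries labelled shEN1 at 1.14 to 1.21 CPM. The same library held *APH1B* at 12.6 CPM against 4.73 to 5.74 CPM, and *DTX3* at 30.5 CPM against 9.74 to 11.1 CPM, in the others of that label. It is 1 of the pair that stood apart over all genes, and its part in these values was not tested. *DLL4* was at 0.216 CPM (8 counts) in the library labelled shScr replicate 2, with the other 3 libraries labelled shScr at 0.542 to 0.587 CPM (18 to 22 counts). It was lower still in shEN1 #1 replicate 1 (0.112 CPM) and shEN1 #2 replicate 2 (0.123 CPM), at 4 counts each.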

How the results depend on the processing

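The count of Notch members passing the test between labels was 0 under every alternative run, as were the count of other pathway genes and the counts of members for each construct and between constructs. At least 10 counts in every library left out *HEY1*. The count over all genes was 0, and became 2 with DESeq2, and 1 with the replicate block, with shScr replicate 4 and shEN1 #2 replicate 1 left out, and with 4 libraries (shScr replicates 3 and 4 and replicate 1 of both constructs) left out. Leaving out each library gave 0 to 1, with 1 (*VAMP7*) without shScr replicate 4. The labels do not say whether same-numbered libraries are paired. Their deviations from the group means correlated between -0.33 and 0.44. This cannot decide the question, because the 2 libraries of a construct deviate by equal and opposite amounts. The replicate block, fitted on the libraries numbered 1 and 2, is a check only. It raised the genes at an unadjusted p below 0.05 from 44 to 278 and turned *NOTCH3* to 0.55, *JAG2* to 0.88 (unadjusted p = 0.0162, adjusted p = 1.00, edgeR) and *HES1* to -0.048 on the log2 scale. Leaving out the 4 libraries turned *NOTCH3* to 0.37, *JAG2* to 0.61, *HES1* to -0.020, *HEY1* to 0.11, *NRARP* to 0.12 and the JAG1 to JAG2 ratio to -0.29. *JAG2* was 0.085 with limma-voom and 0.010 without the 2 libraries. Of 179 alternative log2 fold changes of members, 22 had the other sign. Leaving out each library gave log2 fold changes of 0.0096 to 0.40 (*NOTCH1*), -0.090 to 0.089 (*NOTCH2*), -0.84 to -0.040 (*NOTCH3*), 0.14 to 0.63 (*JAG1*), -0.33 to 0.23 (*JAG2*), -0.66 to -0.10 (*DLL1*), -0.11 to 0.014 (*RBPJ*), -0.068 to 0.089 (*HES1*), -0.63 to -0.019 (*HEY1*) and -0.26 to -0.028 (*NRARP*), and log2 ratio differences of -0.38 to 0.80 (JAG1 to JAG2, lowest without shScr replicate 4) and -0.39 to 0.021 (NOTCH2 to NOTCH1). The cause of these changes was not tested. Relative counting error is largest for *HEY1*, with 2 to 17 counts.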

Other observations

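*RBPJL*, the RBPJ relative that works with PTF1A in acinar cells, did not pass the filter and was picked after its values were seen. Across shScr-labelled replicates 1 to 4 there were 4, 8, 1 and 10 counts, against 0 counts in every shEN1-labelled library. Summed over a label this was 23 counts of 142419383 and 0 of 141536193. With the shEN1 sum set to a floor of 3 counts, it was 7.62-fold lower. That value leaves out the counting error of the 23 and the spread between libraries. All shEN1-labelled libraries were lower than every shScr-labelled one, of which shScr replicate 3 held only 1 count. The share of unfiltered genes with ranges apart in this way is not given here. In a fit without a filter, edgeR's quasi-likelihood test gave an unadjusted p = 0.00735 and an adjusted p = 1.00, which did not pass the correction.

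With the 4 libraries that stand apart left out, a choice made after seeing the data, shScr replicates 1 and 2 remain against replicate 2 of both constructs. *NOTCH1* was then higher in the libraries labelled shEN1 by 0.65 on the log2 scale (edgeR unadjusted p = 4.77e-04, adjusted p = 0.40), *JAG2* by 0.61 (unadjusted p = 0.0282, adjusted p = 0.43) and *JAG1* by 0.32 (unadjusted p = 0.0485, adjusted p = 0.47). At that unadjusted threshold of 0.05, 10.6% of all genes passed, and 0 members passed the correction. With shEN1 #2 replicate 1 left out, *JAG1* also had an unadjusted edgeR p of 0.0464 (log2 fold change 0.63), where 0.663% of all genes passed. With shScr replicate 4 left out as well, its unadjusted edgeR p was 0.0265 (0.41), where 0.442% passed. Both had an adjusted p of 1.00. The libraries left out were those in which *JAG1* was lowest, and these fits are among many alternatives run.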
